A study of Mus musculus with 6 samples.

Results

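Mouse embryonic fibroblasts given tumour necrosis factor α together with cycloheximide (TC) were compared with fibroblasts given saline, across all genes of the deposited table. The comparison took the 2 TC and the 2 control libraries, 4 of the 6 in the series, and they were chosen by treatment label, not by any measured value. Every library came from C57BL/6 cells, a common inbred strain, at passage 5 to 7, and no other genotype is given. Control cells received phosphate-buffered saline, TC cells TNF-α with cycloheximide, and the 2 remaining libraries (TCZ) came from cells that also received z-VAD-fmk, a broad caspase inhibitor. Poly(A) RNA was sequenced. The dose of each agent and the length of treatment were not given in the sources used here. No group received 1 of the 2 agents by itself, so what each does cannot be told apart.

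TNF-α is an inflammatory cytokine. It binds the receptor TNFR1, whose adaptor proteins gather ubiquitin ligases and kinases that release NF-kB transcription factors from their IkB inhibitors. NF-kB then switches on inflammatory genes, survival genes and the genes of its own inhibitors. Cycloheximide blocks the ribosome, so that short-lived proteins, among them survival proteins and repressors, are not replaced. In fibroblasts the pair of agents is a standard way to turn TNF-α from a survival signal into a death signal, and a translation block is also known to lengthen the life of many unstable messenger RNAs.

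The table held 48897 genes, of which 18563 had enough counts to be tested, and total counts ran from 26834352 to 50854810 over the 4 libraries. Levels below are counts per 1000000 (CPM), scaled for library composition, and are given for control 1 and 2 and then TC 1 and 2. Changes are log2 fold changes with their standard error (SE) from edgeR's quasi-likelihood test, and a gene was called where its p adjusted over all tested genes was under 0.05. Of the tested genes 60.7% were called, 31.5% higher and 29.1% lower in TC, with a median log2 fold change over all tested genes of 0.02. Changes of at least 2-fold were called higher in 17.6% and lower in 11.7%. With so many genes called, a list of genes is described by its counts and median beside these values. A gene near 0 in control can be tested through its TC counts alone and can hardly be called lower. In the fifth of tested genes with the lowest control level (RPKM) 42.6% were called higher and 2.61% lower. Lists with many such genes lean towards rises for this reason too. Control 2 (26834352 counts) and TCZ 2 (24922627 counts) were the shallowest of the 6 libraries, and with both left out 5341 genes were called higher and 5284 lower. Single genes are given without a library where that moved them by over 1.5 times or ended their call. Control and TC libraries did not overlap in 79.6% of all tested genes, and in 11248 of the 11264 called ones. In a sample of many cells, fewer cells of a type and less RNA per cell cannot be told apart. All 12 fibroblast marker genes were tested, and their summed level was 25612 and 23727 CPM in control and 17545 and 18128 CPM in TC. Col1a1 and Vim, for type I collagen and vimentin, had the highest RPKM of these markers in control, a mean of 2178 and 1990.3 (reads per kilobase of gene and 1000000 counts). RPKM uses total counts and is not scaled for library composition, so RPKM values need not match the log2 fold changes given beside them.

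**Figure D1:**
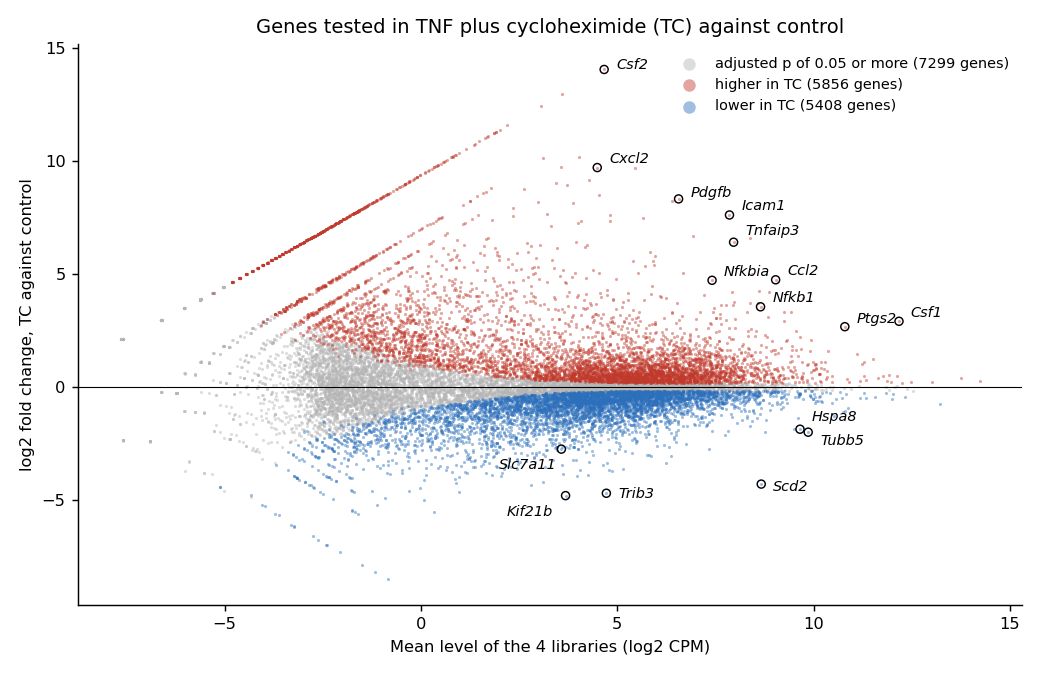
Each point is 1 tested gene, with its mean level over the 4 libraries on the x axis (log2 CPM) and its log2 fold change in TC against control on the y axis. Red points are the 5856 genes called higher, blue points the 5408 called lower and grey points the rest; named genes are circled, and 57 tested genes without a count in the 4 libraries are not drawn. The diagonal lines of points at the lower left and upper left are genes with 0 or very few counts in 1 of the groups.

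The NF-kB subunit genes all rose, 5 of 5 where 31.5% of all tested genes did, with a median of 2.97. Nfkb1, which encodes the p50 precursor (chromosome 3, 135584655 to 135691982, minus strand), had 63.8 and 63.0 CPM in control and 723 and 751 CPM in TC. Both TC libraries lay far above both control libraries, and the log2 fold change was 3.54 ± 0.08 (SE, adjusted p = 2.49e-19). Relb, a subunit of the slower noncanonical pathway, had 12.2 and 13.5 CPM in control and 167 and 171 CPM in TC and rose by 3.72 ± 0.10. Rela, the main activating subunit, had 75.0 and 69.7 CPM in control and 249 and 267 CPM in TC. It rose least of the 5, by 1.83 ± 0.08.

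Among 15 genes for IkB proteins and A20-type inhibitors, the brakes that NF-kB induces on itself, 13 rose and 1 fell, and the median was 1.96. Nfkbia, which encodes IkBα (chromosome 12, 55489409 to 55492647, minus strand), had 13.0 and 11.9 CPM in control and 315 and 341 CPM in TC, and rose by 4.71 ± 0.10 (adjusted p = 5.19e-20). Nfkbie, for IkBε, had 2.47 and 2.52 CPM in control and 101 and 103 CPM in TC. The groups did not overlap, and the log2 fold change was 5.35 ± 0.10. Tnip3, a partner of A20, had 0 counts in control against 74 and 99 in TC, and was at least 46.2-fold higher against a floor of 3 counts over the control group. The exception was Tnip2, another A20-binding protein, with 6.31 and 6.40 CPM in control and 4.59 and 3.78 CPM in TC. It fell by 0.60 on the log2 scale, with an adjusted p of 0.00340.

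The receptor complex that receives the signal did not move as a block. Of its 19 tested genes 7 rose and 8 fell (29.1% of all tested genes fell), and the median was -0.14. Tnfrsf1a, the gene of TNFR1 (chromosome 6, 125349723 to 125362483, plus strand), had 103 and 100.5 CPM in control and 61.6 and 59.1 CPM in TC. Its adaptor gene Tradd changed by -0.84 ± 0.15, the kinase gene Ripk1 by -0.78 ± 0.08 and Rbck1, a subunit of the linear ubiquitin ligase LUBAC, by -1.21 ± 0.09, and all of these were lower in both TC libraries. Genes of the cIAP ligases and of the adaptor that holds them went the other way. Birc3, for the inhibitor of apoptosis cIAP2, had 15.9 and 15.2 CPM in control and 107 and 109 CPM in TC and rose by 2.79 ± 0.08. Traf2 rose by 1.43 ± 0.08 and Birc2, for cIAP1, by 1.11 ± 0.08. Among 11 further receptors of the family 5 rose and 4 fell. Fas, the receptor of Fas ligand, went from 2.39 and 2.26 to 34.3 and 32.0 CPM, a log2 change of 3.82 ± 0.12. Cd40, the receptor of CD40 ligand, rose by 3.65 ± 0.11, whereas Tnfrsf21 (DR6) changed by -1.04 ± 0.14 and the decoy receptor gene Tnfrsf22 by -1.23 ± 0.09. Of 8 ligand genes 5 rose and 1 fell. The one that fell, Tnfsf13b (BAFF), was not called without control 2. Tnf itself had 2 control counts, both in control 1, against 154 in TC. The ratio was 61.6 (95% counting interval 16.8 to 514), and the log2 fold change of 5.79 ± 0.55 stood at 8.98 without control 1 and at 5.14 without control 2. Tnfsf18, which encodes the ligand of GITR, rose by 4.01 ± 0.15 and Tnfsf11, for RANKL, by 1.18 ± 0.20.

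Among chemokines, the secreted proteins that draw leukocytes, the CXC group had the highest median of the 51 lists. Of 11 CXC chemokine genes 9 rose and 1 fell (2 without control 2), and the median log2 fold change was 5.99. Cxcl2, a neutrophil attractant (chromosome 5, 90903899 to 90905938, plus strand), had 0.0618 and 0.0332 CPM in control and 42.3 and 47.2 CPM in TC. Those levels were 3 and 1 counts in control against 2054 and 2347 in TC. Cxcl1, its close relative, rose by 5.99 ± 0.12, and Cxcl11, a T cell attractant with 0 control counts, was at least 168-fold higher. Cxcl12, which is made constantly by fibroblasts, had 182 and 168 CPM in control and 158 and 157 CPM in TC. Its log2 fold change of -0.15 ± 0.07 did not pass (adjusted p = 0.0773). Cxcl14, a chemokine of resting tissue, fell by 1.82. Of 10 CC chemokine genes 6 rose and the others did not pass. The monocyte attractant Ccl2 (chromosome 11, 82035577 to 82037452, plus strand) had 38.7 and 36.9 CPM in control and 1013 and 1001 CPM in TC and rose by 4.73 ± 0.09 (adjusted p = 2.30e-20). Its neighbour on chromosome 11, Ccl7, had 54.7 and 55.3 CPM in control and 702 and 721 CPM in TC. Ccl11, the eosinophil attractant eotaxin, changed by -0.40 ± 0.69 and did not pass (adjusted p = 0.641).

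The promoters of 4 genes that rose are shown because letters matching the NF-kB motif, GGNNTTTCC on either strand, stand close to their start sites. The sequences are RefSeq's for build GRCm38.p6, run 5′ to 3′ towards the gene's start, and lie upstream of it. Capitals mark each match to that motif. In Nfkbia and Cxcl10 they also mark 1 match to the interferon motif TTCNNTTTC, the middle of the 3 runs of capitals in Nfkbia and the first of the 2 in Cxcl10, where its reverse strand is read.
Cxcl2 (chr5:90903783-90903850, plus strand): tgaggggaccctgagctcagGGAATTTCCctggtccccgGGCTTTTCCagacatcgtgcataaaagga
Icam1 (chr9:21015767-21015884, plus strand): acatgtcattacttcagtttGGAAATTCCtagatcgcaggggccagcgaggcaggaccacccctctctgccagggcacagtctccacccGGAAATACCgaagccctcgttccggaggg
Nfkbia (chr12:55492648-55492845, minus strand): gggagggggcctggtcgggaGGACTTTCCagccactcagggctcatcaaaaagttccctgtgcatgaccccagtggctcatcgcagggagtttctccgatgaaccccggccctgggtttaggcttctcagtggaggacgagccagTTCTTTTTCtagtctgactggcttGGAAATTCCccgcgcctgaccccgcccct
Cxcl10 (chr5:92349019-92349122, minus strand): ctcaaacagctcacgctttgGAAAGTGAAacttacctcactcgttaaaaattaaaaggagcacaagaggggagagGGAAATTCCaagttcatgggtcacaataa
Of the 9749 tested genes with 1 promoter in the RefSeq table (250 bases before to 50 after the start), 6.25% held the NF-kB letters, as did 5.77% of all 22862 promoters. The share was 9.03% among genes at least 2-fold higher and 4.42% among genes at least 2-fold lower. Among genes over 16-fold higher it reached 12.7% (53 of 417). In the CXC chemokine list 5 of 8 promoters had it, and in the IkB and A20 list 4 of 10. The AP-1 motif TGANTCA was in 11.5% of promoters of genes over 16-fold higher and in 6.02% of those of genes not called. Its share was 9.03% among genes at least 2-fold higher, 5.47% over all tested genes and 7.98% over all 22862 promoters. GC content also differed between classes, without a steady order. It averaged 52.8% over 16-fold higher, 57.6% between 4-fold and 16-fold higher and 62.4% under 2-fold higher. Where genes were not called it was 58.6%, and in the classes of falls 59.7% to 62.2%. The part of GC content in these shares was not tested. A gene near 0 in control can be tested through its TC counts alone, so the shares were taken again, after the data were seen, over genes averaging 1 CPM or more in control. There the NF-kB letters were in 22.2% of 18 promoters over 16-fold higher, in 13.8% of 167 between 4-fold and 16-fold higher and in 6.22% of 2009 not called. Mean GC content in these 3 classes was 58.7%, 59.6% and 60.5%. A match describes letters only, not binding.

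**Figure D2:**
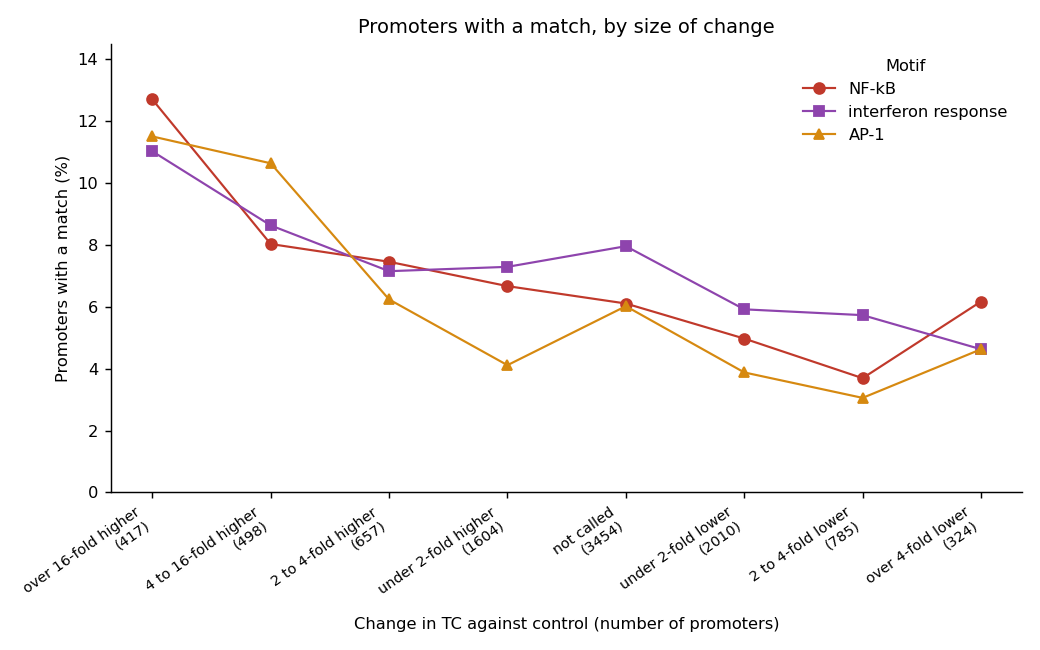
Share of promoters with a match to each of 3 motifs (y axis, percent) in classes of change in TC against control (x axis, number of promoters in brackets), over 9749 tested genes with 1 promoter. The NF-kB line is at 12.7% in the class over 16-fold higher and at 6.11% where genes were not called; the points carry no error bars, since promoters are not replicates of a treatment.

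Cytokine genes moved less evenly. Of 17 tested interleukin and colony stimulating factor genes 10 rose and 2 fell, and the median was 1.96. Csf1, the macrophage growth factor M-CSF, was already high in control, with 267 and 266 RPKM in control and 1762 and 1835 RPKM in TC (RPKM allows for gene length). Among called protein-coding genes with a full symbol and no overlap between control and TC libraries, Csf1 had the largest gain in mean RPKM. Csf2, for GM-CSF, had 0 counts in both control libraries and 2425 and 2550 in TC. Il6, the classical TNF-induced cytokine of fibroblasts, rose by 2.95 ± 0.11, Il33, an alarm cytokine held in the nucleus, by 2.76 ± 0.34, and Tslp by 3.96 ± 0.14. Ctf1 (cardiotrophin) changed by -1.26 ± 0.44 and Il34, another ligand of the M-CSF receptor, by -1.19 ± 0.40. Both falls were fragile, since Ctf1 lost its call without control 1 (adjusted p = 0.448) or TC 2 (adjusted p = 0.0866) and Il34 without control 2 (adjusted p = 0.0972) or TC 1 (adjusted p = 0.114), which left 1 fall in each of these settings.

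Adhesion molecule genes that serve leukocyte attachment included some of the largest rises. Of 12 tested 8 rose and 2 fell. Icam1 (chromosome 9, 21015960 to 21028797, plus strand) had 2.54 and 2.12 CPM in control and 438 and 483 CPM in TC, and rose by 7.60 ± 0.14 (adjusted p = 1.94e-20). Vcam1, the other main docking protein, rose by 2.46 ± 0.08. Madcam1, known from mucosal vessels, had 1 count over both control libraries against 1703 in TC, which gives a ratio of 1363 (counting interval 244 to 53885). The fitted log2 fold change, which depends on how a count near 0 is handled and is no conversion of that ratio, was 10.11 ± 0.34, or 12.45 with control 1 left out and 9.52 with control 2 left out. N-cadherin gene Cdh2 changed by 0.05 ± 0.07 and Cdh11 by -0.05 ± 0.07, neither passing, while Mcam fell by 1.34.

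Matrix protease, acute phase and prostaglandin genes split. Of 20 protease and inhibitor genes 8 rose and 7 fell, and the median was -0.08. Mmp9 (gelatinase B) had 6.49 and 6.07 CPM in control and 107 and 113 CPM in TC and rose by 4.12 ± 0.10, Mmp13 (collagenase 3) rose by 2.07 ± 0.17, and Timp1, an inhibitor of these enzymes, by 0.88 ± 0.08. Mmp11 changed by -1.67 ± 0.09 and Mmp19 by -1.41 ± 0.11. Of 11 acute phase, complement and antioxidant genes 6 rose (5 with DESeq2 or library totals) and 1 fell. The median was 0.85, or 0.55 without control 1 and 1.23 without control 2. Complement C3 rose by 5.61 ± 0.21 and Ptx3, a pattern recognition protein, by 3.63 ± 0.08. Sod2, the mitochondrial superoxide dismutase often used as a TNF-α response gene, had 35.3 and 32.3 CPM in control and 33.5 and 39.8 CPM in TC. Those libraries overlapped, and its change of 0.11 ± 0.10 did not pass (adjusted p = 0.318). Lcn2, Saa1 and Saa2 did not reach the level needed for a test. Of 13 prostaglandin pathway genes 4 rose and 5 fell. Ptgs2, the inducible cyclooxygenase, had 120.0 and 115 RPKM in control and 689 and 653 RPKM in TC and rose by 2.66 ± 0.08. Its constitutive counterpart Ptgs1 had 145 and 138 CPM in control and 42.7 and 47.0 CPM in TC, a change of -1.66 ± 0.08. Ptges, which makes prostaglandin E2, rose by 1.43 ± 0.08, and Ptgis, which makes prostacyclin, changed by -1.08 ± 0.08.

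Genes of the interferon response rose in every case tested in 2 lists. All 29 tested antiviral genes rose, with a median of 3.16, as did all 15 tested interferon-induced GTPases, with a median of 4.14. Of all tested genes 31.5% rose. Members near 0 in control, such as Isg15, Rsad2 and Gbp3 below, could hardly have been called lower. Isg15, a ubiquitin-like protein, had 0.577 and 0.232 CPM in control and 3.996 and 3.68 CPM in TC and rose by 3.15 ± 0.36, or by 4.03 without control 1. Cmpk2, next to Rsad2 in the genome, rose by 5.90 ± 0.32. Rsad2 (viperin) had 0.103 and 0.365 CPM in control and 30.9 and 32.5 CPM in TC. Its control libraries were unequal, and the log2 fold change of 7.25 ± 0.26 stood at 6.43 when control 1 was left out and at 8.22 when control 2 was. For Mx2, a dynamin-like antiviral GTPase, the corresponding values were 7.64 ± 0.30, 6.52 and 9.62. Among the GTPases that attack vacuoles of intracellular parasites, Gbp3 had 0.825 and 0.630 CPM in control and 12.5 and 13.9 CPM in TC and rose by 4.14 ± 0.21. Gbp and Ifit genes have close paralogs that may share reads, so their single values are uncertain.

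Genes upstream in this pathway were low or moved less evenly. Ifnb1, the type I interferon of fibroblasts, had 0 control counts and 16 and 7 counts in TC, at least 6.14-fold higher (adjusted p = 0.00765), and lost its call without control 1 (adjusted p = 0.0993) or control 2 (adjusted p = 0.0595). Of 18 interferon ligand, receptor and STAT genes 12 rose and 1 fell. Stat2, a transcription factor that acts behind interferon receptors, rose by 1.29 ± 0.08, and Stat3 was the one that fell, at -0.33 ± 0.07. Of 11 interferon regulatory factor genes 8 rose (7 with library totals) and 3 fell. The median was 1.56, or 1.40 without control 1 and 1.39 without TC 1. Irf7 had 1.67 and 1.29 CPM in control and 12.5 and 12.3 CPM in TC and rose by 3.04 ± 0.19, Irf5 by 3.07 ± 0.10 and Irf1, a direct NF-kB target, by 1.56 ± 0.10. The 3 that fell were genes of the Irf2-binding protein family, which are corepressors, with Irf2bp1 at -1.28 ± 0.11. Of 15 MHC class I and immunoproteasome genes 14 rose and the other did not pass. H2-K1, a classical class I heavy chain with close paralogs, had 42.2 and 37.1 CPM in control and 134 and 145 CPM in TC and rose by 1.82 ± 0.09. The peptide transporter gene Tap1 rose by 1.39 ± 0.13.

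The promoters of 3 antiviral genes are shown because the interferon motif, TTCNNTTTC on either strand, was found in 14 of 19 antiviral genes and 8 of 9 GTPase genes with 1 promoter, against 7.25% of all tested genes. Capitals mark matches to it, some of which overlap, and in Isg15 and Rsad2 also a match to the NF-kB motif, which is the last run of capitals in each.
Ifit1 (chr19:34640760-34640833, plus strand): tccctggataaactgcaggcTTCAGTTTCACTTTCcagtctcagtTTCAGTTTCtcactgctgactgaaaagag
Isg15 (chr4:156200831-156200916, minus strand): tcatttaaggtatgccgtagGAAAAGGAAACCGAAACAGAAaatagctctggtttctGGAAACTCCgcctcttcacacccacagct
Rsad2 (chr12:26456499-26456591, minus strand): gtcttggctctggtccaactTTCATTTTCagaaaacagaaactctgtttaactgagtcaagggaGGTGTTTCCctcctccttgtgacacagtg
Over all genes the interferon letters were in 8.65% of promoters of genes at least 2-fold higher and in 7.96% of those not called. They were in 11.03% of those over 16-fold higher and in 8.62% of all 22862 promoters.

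**Figure D3:**
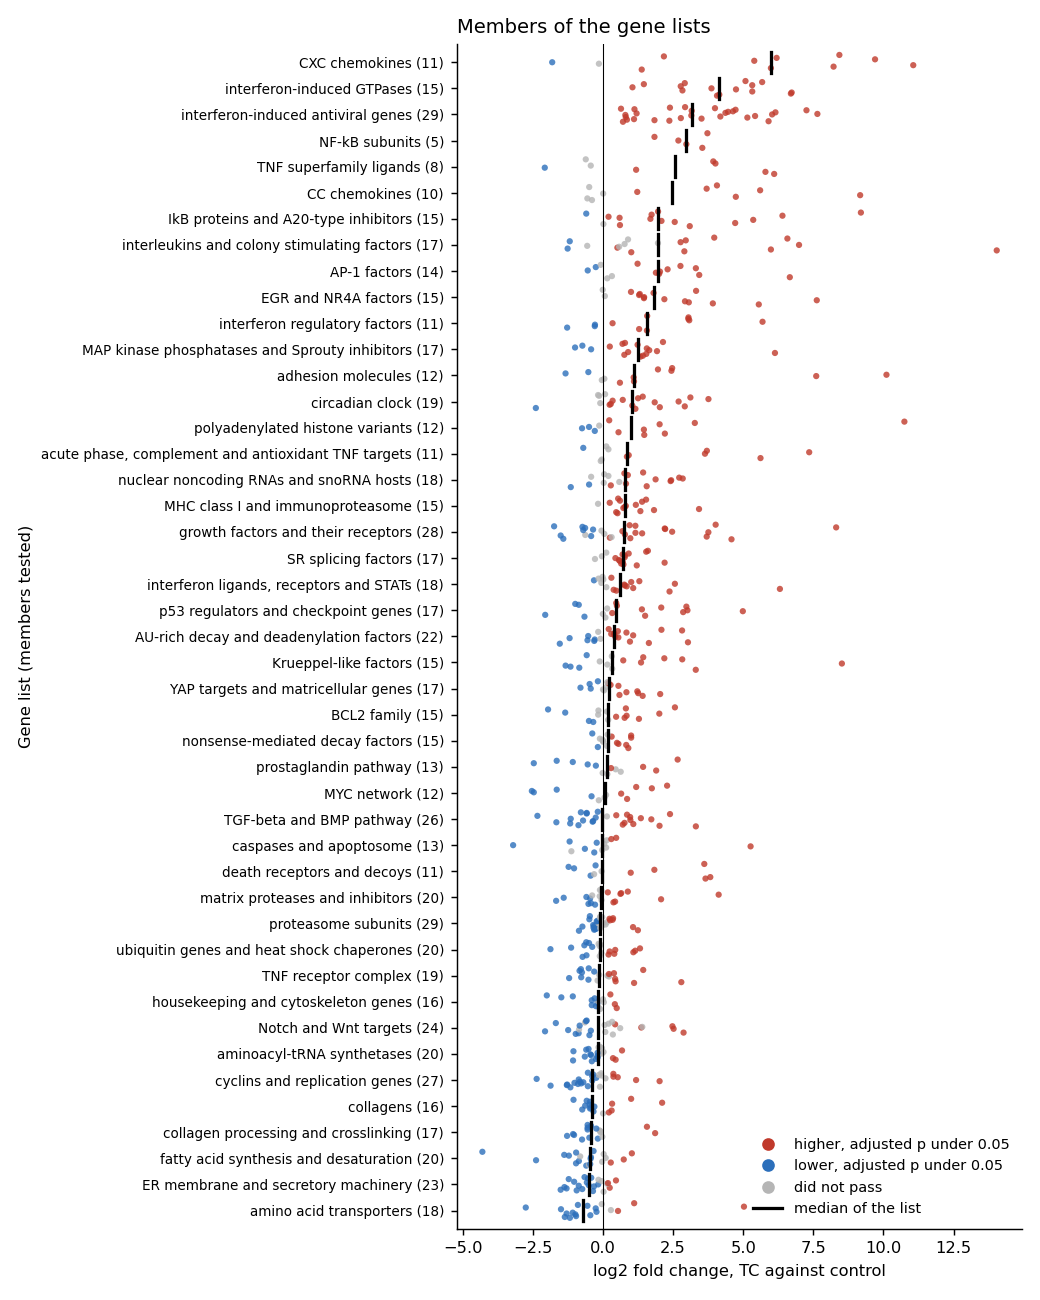
Each point is 1 tested gene of a list, with its log2 fold change in TC against control on the x axis; lists are on the y axis with the number of tested members, ordered by median. Red and blue points passed an adjusted p of 0.05, grey points did not, and the black bar is the median, which runs from 5.99 for CXC chemokines to -0.73 for amino acid transporters.

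Immediate early genes, which respond to signals without new protein synthesis, rose broadly. Of 14 AP-1 genes 9 rose and 2 fell (1 without control 1 or TC 1), and the median was 1.94. Fos had 5.75 and 4.81 CPM in control and 54.6 and 60.7 CPM in TC and Jun 151 and 143 CPM in control and 691 and 757 CPM in TC. Both were higher in both TC libraries, Fos by 3.43 ± 0.10 and Jun by 2.30 ± 0.08. Jund, the constant member of the family, was at -0.26 ± 0.09 and lost its call without control 1 (adjusted p = 0.302) or TC 1 (adjusted p = 0.249). Of 15 EGR and NR4A genes 13 rose and the others did not pass. Egr1, a zinc finger factor induced by growth factors, rose by 3.91 ± 0.09, and Arc, best known from synapses, had 2.51 and 2.49 CPM in control and 116 and 119.9 CPM in TC. Srf, the serum response factor that drives many of them, did not pass, at -0.01 ± 0.08 (adjusted p = 0.894). Of 15 Krueppel-like factor genes 7 rose and 4 fell. Klf10, a TGF-β early response gene, rose by 3.31 ± 0.09 and Klf5 by 2.82 ± 0.10, whereas Klf13 changed by -1.16 ± 0.07 and Klf15 by -1.34 ± 0.36.

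Feedback inhibitors of MAP kinases rose in most cases, and so did several factors that destroy unstable messenger RNA. Of 17 dual-specificity phosphatase and Sprouty genes 14 rose and 3 fell, and the median was 1.23. Dusp5, which acts on nuclear ERK, had 31.2 and 28.8 CPM in control and 113 and 115 CPM in TC, and Spry4, an inhibitor of growth factor signalling, rose by 2.14 ± 0.08. Spred2 and Dusp7 were among the 3 that fell, by 0.74 and 0.43. Zfp36, for tristetraprolin, which binds AU-rich elements and recruits deadenylases, had 22.5 and 22.4 CPM in control and 151 and 165 CPM in TC. It rose by 2.82 ± 0.08 (adjusted p = 1.58e-17). Btg2, which activates deadenylation, had 44.4 and 40.7 CPM in control and 330.0 and 364 CPM in TC and rose by 3.03 ± 0.09. Genes of the deadenylase complexes differed among each other, with Cnot8 at -1.19 ± 0.09, Cnot6 at -0.56 ± 0.08 and Cnot1 at -0.32 ± 0.07 but Pan2 at 1.07 ± 0.10. Over the 22 genes of this list 14 rose and 6 fell.

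**Figure D4:**
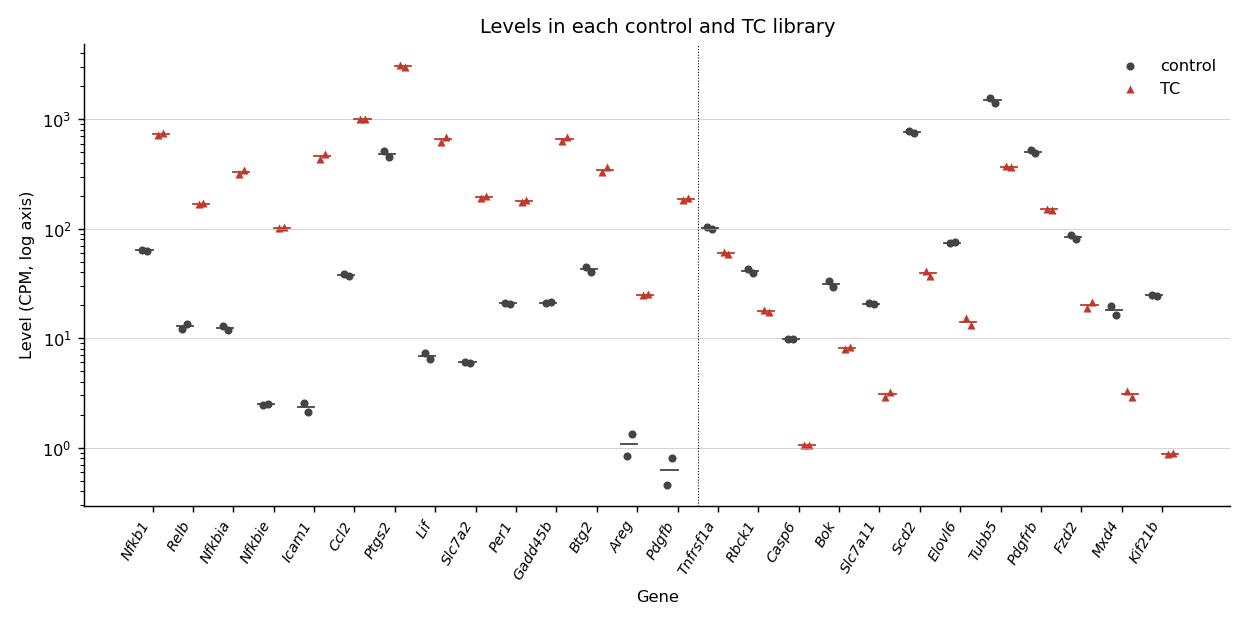
Level of 26 genes in each library, in CPM on a log axis, with control as grey circles and TC as red triangles; short lines are the means of 2 libraries. The 14 genes left of the dotted line were higher in both TC libraries, and the 12 to the right were lower; for each gene the groups do not overlap.

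Genes that drive and restrain growth moved in both directions. Myc had 87.2 and 76.9 CPM in control and 275 and 273 CPM in TC and rose by 1.74 ± 0.08, while the MYC antagonist genes Mxd4 and Mxi1 changed by -2.54 ± 0.14 and -1.65 ± 0.13. Mxd4 had 19.7 and 16.4 CPM in control and 3.32 and 2.90 CPM in TC. Over 12 genes of the network 5 rose and 4 fell, and the median of 0.08 turned to -0.06 when libraries were scaled by their totals alone. Of 27 cyclin and replication genes 5 rose and 17 fell, and the median was -0.39. Ccnd2, for cyclin D2, had 1174 and 1090.2 CPM in control and 304 and 315 CPM in TC and changed by -1.87 ± 0.07, and Ccnd3 by -1.29 ± 0.07. Cdk6, a kinase that pairs with the D cyclins, rose by 2.02 ± 0.07. Of 17 p53 regulator and checkpoint genes 10 rose and 4 fell. Cdkn1a, for the inhibitor p21, rose by 1.50 ± 0.08, and Cdkn1b, for its relative p27, had 31.5 and 26.2 CPM in control and 6.28 and 7.55 CPM in TC. That is a change of -2.06 ± 0.12. Mdm2, the ubiquitin ligase of p53, rose by 1.38 ± 0.07, and Gadd45g by 3.01 ± 0.08.

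Of 19 clock genes, many with short-lived transcripts, 14 rose and 1 fell (11 and 3 with library totals), and the median was 1.04. With 1 of the 4 libraries left out the median lay between 0.88 and 1.17. Per1, a repressor of the clock, had 20.9 and 20.7 CPM in control and 175 and 185 CPM in TC, and rose by 3.11 ± 0.08. Nr1d1, for the repressor REV-ERBα, rose by 3.76 ± 0.08. Arntl, for the activator BMAL1, rose by 1.15 ± 0.07. The member that fell in the main count was Arntl2, by 2.40.

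Splicing factor genes and many nuclear noncoding RNAs rose. Of 17 SR splicing factor and kinase genes 14 rose and the others did not pass, with a median of 0.70. Tra2b had 98.2 and 83.3 CPM in control and 278 and 272 CPM in TC and rose by 1.60 ± 0.08, and the kinase gene Clk4 by 2.19 ± 0.08. Among 18 nuclear noncoding RNAs and hosts of small nucleolar RNAs 11 rose and 2 fell. The host transcripts Snhg15 and Snhg17, from a class known as targets of translation-dependent decay, rose by 2.84 ± 0.10 and 2.71 ± 0.09. Snhg15 had 7.01 and 7.76 CPM in control and 51.8 and 53.4 CPM in TC. Neat1, the scaffold of paraspeckles, rose by 2.41 ± 0.07, and Malat1 by 0.82 ± 0.07. Among nonsense-mediated decay factor genes 7 of 15 rose and 2 fell (0 without control 1 and 1 without each other library), around a median of 0.16. Among 12 polyadenylated histone variant and histone processing genes 8 rose, with H3f3b at 2.02 ± 0.08 and the linker histone gene H1fx at 2.20 ± 0.13, and 3 fell.

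Of 2701 tested long noncoding genes 33.0% were called higher and 8.40% lower, while of 14381 protein-coding genes 32.5% were higher and 34.8% lower. A gene low in control can enter the test through TC alone, so the shares were taken again, after the data were seen, over genes that averaged 1 CPM or more in control. There 29.3% of 447 long noncoding genes were higher and 25.7% lower, and 31.4% of 11610 protein-coding genes were higher and 41.8% lower. Most of the difference between rises and falls of long noncoding genes was thus among those under 1 CPM in control. Without use of strand, reads of an antisense gene and its partner cannot be told apart, and no source used here gives the strand setting.

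In all, 309 genes had 0 counts in both control libraries and at least 10 in each TC library, and 131 of them were protein coding. The reverse was seen for 6 genes. These cut-offs are raw counts, and the control libraries were shallower, with 46509236 and 26834352 counts against 49560566 and 50854810 in TC. The part of depth in this contrast was not tested. After Csf2, the highest protein-coding genes with 0 control counts included Chrnb4, a nicotinic receptor subunit, with 364 and 367 TC counts (at least 195-fold higher). Pnoc, the nociceptin precursor, had 346 and 370 (at least 191-fold), and Gabrr1, a GABA receptor subunit, 334 and 381 (at least 191-fold). These genes are known mainly from nervous tissue, and their TC levels stayed between 6.88 and 7.67 CPM. They were named after their values were seen.

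The largest falls included a kinesin, 2 Tribbles pseudokinases and receptors. Kif21b, a kinesin motor, had 25.0 and 24.5 CPM in control and 0.865 and 0.885 CPM in TC, and changed by -4.82 ± 0.16 (adjusted p = 8.68e-17). Trib3, a pseudokinase known to be induced by ATF4, had 52.0 and 49.4 CPM in control and 1.96 and 1.91 CPM in TC, at -4.71 ± 0.12. Trib2, of the same Tribbles family, had 65.0 and 65.6 CPM in control and 5.13 and 5.41 CPM in TC, at -3.63 ± 0.10. Cmklr1, the chemerin receptor, changed by -3.69 ± 0.13, Npr3, the clearance receptor of natriuretic peptides, by -3.48 ± 0.11, and Gas1, a membrane protein of growth arrest and Hedgehog signalling, by -3.47 ± 0.14. Csgalnact1, which starts chondroitin sulfate chains, had 54.1 and 48.3 CPM in control and 3.50 and 4.49 CPM in TC. In each of these genes both TC libraries lay under 6 CPM and both control libraries above 20 CPM.

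Genes of lipid synthesis and amino acid uptake fell in most cases. Of 20 genes of fatty acid synthesis and desaturation 3 rose (1 without control 2) and 12 fell, and the median was -0.48. Scd2, a stearoyl-CoA desaturase, had 789 and 753 CPM in control and 40.8 and 37.2 CPM in TC. Elovl6, which lengthens palmitate, had 73.5 and 75.3 CPM in control and 15.2 and 13.2 CPM in TC and changed by -2.39 ± 0.08, and Fasn, the synthase itself, by -1.22 ± 0.07. Me1, malic enzyme, which supplies NADPH, rose by 1.03 ± 0.08. Amino acid transporter genes had the lowest median of all lists, -0.73, with 3 of 18 higher and 13 lower. Slc7a11, the cystine importer of glutathione synthesis, had 20.9 and 20.6 CPM in control and 2.90 and 3.22 CPM in TC, and changed by -2.76 ± 0.14 (adjusted p = 1.06e-13). Slc38a2, the starvation-induced carrier SNAT2, changed by -1.08 ± 0.07. Slc7a2, an arginine importer known to be induced in inflammation, went against them with 6.06 and 5.97 CPM in control and 191 and 201 CPM in TC. Of 20 aminoacyl-tRNA synthetase genes 12 fell (17 with library totals) and 3 rose. The median was small, -0.20, and lay between -0.25 and -0.17 with 1 of the 4 libraries left out. Cars, which charges cysteine, was at -1.07 ± 0.07 and Rars, which charges arginine, at 0.68 ± 0.07.

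Many transporter and synthetase genes are known targets of ATF4, the factor of amino acid stress, which binds a composite element with letters TTGCATCA. It was found in 2 of 7 transporter and 4 of 12 synthetase promoters, against 0.636% of all tested genes. Across all tested genes the letters did not go with falls. They were in 0.541% of promoters of genes at least 2-fold lower, 0.509% at least 2-fold higher and 0.840% not called. Slc7a11, which fell, and Atf3, which rose by 6.66, are shown together because both hold the letters, marked by capitals, shortly before their starts.
Slc7a11 (chr3:50443633-50443699, minus strand): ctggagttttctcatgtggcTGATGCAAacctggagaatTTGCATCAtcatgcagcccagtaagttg
Atf3 (chr1:191183416-191183463, minus strand): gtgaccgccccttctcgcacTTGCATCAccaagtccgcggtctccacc

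The secretory pathway and its main cargo fell by small steps. Of 23 genes of the endoplasmic reticulum membrane and vesicle machinery 3 rose (1 without TC 2) and 16 fell, and the median was -0.51. Kdelr3, which returns escaped chaperones, had 104 and 95.9 CPM in control and 35.5 and 34.6 CPM in TC and changed by -1.51 ± 0.07, Mia3, needed to load bulky collagen into vesicles, by -1.30 ± 0.07, and Ssr1 of the translocon by -1.23 ± 0.08. Of 16 collagen genes 5 rose (3 without TC 2, or with library totals) and 10 fell. Col1a1, for the main chain of type I collagen, had 2178 and 2179 RPKM in control and 1147 and 1206 RPKM in TC, and changed by -0.74 ± 0.07. Col6a3 changed by -1.06 ± 0.07, while Col5a3 rose by 2.11 ± 0.08. Of 17 collagen processing genes 2 rose and 11 fell, where Loxl4 at 1.86 ± 0.07 and Plod2 at 1.56 ± 0.07, both crosslinking enzymes, were the genes that rose. Their relative Loxl1 changed by -1.29 ± 0.08.

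Tubulin transcripts and a constitutive chaperone fell. Of 16 housekeeping and cytoskeleton genes 3 rose and 8 fell (5 without TC 1, 13 with library totals). Tubb5, a main β-tubulin, had 1552 and 1422 CPM in control and 371 and 367 CPM in TC, and changed by -2.01 ± 0.07. The α-tubulin genes Tuba1a and Tuba1b changed by -1.49 ± 0.10 and -1.08 ± 0.17, with paralogs that may share reads. Actin gene Actb had 5683 and 5318 CPM in control and 4935 and 5276 CPM in TC and did not pass (adjusted p = 0.208). Hspa8, the constant HSC70 chaperone, had 1424 and 1101 CPM in control and 357 and 331 CPM in TC, a change of -1.88 ± 0.11. Some stress-induced chaperone genes rose, with Hspa1a at 1.15 ± 0.15, Hspb1 (HSP25) at 1.32 ± 0.12 and Hsp90aa1 at 1.08 ± 0.10, and others fell, with Hsph1 at -0.67 ± 0.08 and Dnajb1 at -0.59 ± 0.08. Over 20 ubiquitin and heat shock genes 7 rose and 8 fell. Proteasome subunit and regulator genes stayed near 0, with a median of -0.11, 6 higher and 12 lower of 29, and the number lower became 21 with library totals and 6 without control 1. Mitochondrial transcripts ND1 and CYTB changed by -1.31 ± 0.07 and -0.94 ± 0.07.

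Growth factor and receptor genes moved in both directions. Of 28 genes of growth factors and their receptors 16 rose and 8 fell, and the median was 0.73. Pdgfb, a mitogen that fibroblasts normally receive from platelets, had 0.454 and 0.796 CPM in control and 183 and 193 CPM in TC. It rose by 8.31 ± 0.14 (adjusted p = 2.55e-21), and its receptor gene Pdgfrb, with 522 and 494 CPM in control and 153 and 149.8 CPM in TC, changed by -1.75 ± 0.07. Several ligands of the EGF receptor rose, with Areg (amphiregulin) at 4.58 ± 0.16, Ereg (epiregulin) at 3.70 ± 0.08 and Hbegf at 2.46 ± 0.07. Vegfc, a lymphatic growth factor, rose by 4.01 ± 0.09, Gdnf by 3.76 ± 0.10 and Met, the HGF receptor, by 2.21 ± 0.07. Fgf2 changed by -1.51 ± 0.12.

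Genes of developmental pathways were also split. Of 26 TGF-β and BMP genes 12 rose and 13 fell. The ligand genes Tgfb2 and Bmp2 rose by 2.39 ± 0.08 and 3.31 ± 0.32, while the BMP-responsive genes Id1 and Smad6, an inhibitor and a feedback SMAD, changed by -1.67 ± 0.10 and -2.34 ± 0.11. Id1 had 50.9 and 45.1 CPM in control and 13.3 and 17.0 CPM in TC. Of 24 Notch and Wnt genes 5 rose and 10 fell, with the ligand gene Jag1 at 1.36 ± 0.07, the Wnt effector gene Lef1 at 2.47 ± 0.12, the Wnt receptor gene Fzd2 at -2.07 ± 0.09 and the secreted antagonist gene Sfrp1 at -1.69 ± 0.08. Fzd2 had 88.0 and 80.2 CPM in control and 18.8 and 21.3 CPM in TC. Among 17 YAP target and matricellular genes 9 rose and 4 fell. Ctgf, a standard YAP target, had 783 and 758 RPKM in control and 1658 and 1661 RPKM in TC and rose by 1.25 ± 0.07, and Ankrd1 by 2.04 ± 0.07. Spp1 (osteopontin) changed by -0.81 ± 0.08.

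Death genes, which the treatment is used to engage, did not move together at the transcript level. Of 13 caspase and apoptosome genes 3 rose and 5 fell, and the median was -0.03. Casp6, an executioner caspase, had 9.75 and 9.89 CPM in control and 1.05 and 1.07 CPM in TC. It changed by -3.21 ± 0.18, and the initiator gene Casp9 by -1.19 ± 0.16. Casp4, the inflammatory caspase-11, rose by 5.26 ± 0.20, 4.61 without control 1 and 5.92 without control 2. Of 15 BCL2 family genes 7 rose and 4 fell (2 without TC 1). Pmaip1 (NOXA), a proapoptotic BH3-only gene, had 38.4 and 35.1 CPM in control and 222 and 213 CPM in TC and rose by 2.56 ± 0.08, and Bid, which caspase-8 cleaves, rose by 2.01 ± 0.08. Mcl1, a short-lived survival protein, rose by 0.81 ± 0.07 and Bcl2l1 (BCL-XL) by 0.46 ± 0.08. Bok, a proapoptotic effector, had 33.5 and 29.7 CPM in control and 7.91 and 8.33 CPM in TC, a change of -1.96 ± 0.10, and Bak1 changed by -0.50 ± 0.08.

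Markers of other cell types were counted beside these groups. Of 9 tested macrophage and leukocyte markers 1 rose (0 without control 1) and 1 fell (2 without TC 2). Their summed level ran from 12.2 to 15.9 CPM over the 4 libraries, and the lymphocyte marker Cd3e had 0 counts in all 4. Epithelial markers were higher in TC, with a summed level of 19.4 and 16.8 CPM in control and 82.7 and 75.8 CPM in TC. Krt18 and Krt19, simple keratins, made up most of it and rose by 1.98 ± 0.18 and 2.11 ± 0.11, while Krt5 and Krt14, keratins of stratified epithelium, were too low to test. Of 6 tested epithelial markers 5 rose. Endothelial markers summed to 117 and 110.5 CPM in control and 403 and 399 CPM in TC, where Kdr, the VEGF receptor, rose by 3.92 ± 0.09. Of 7 tested endothelial markers 3 rose and 1 fell, with a median of 1.12 (0.10 without control 1), the fall being Tek, the angiopoietin receptor, at -1.17 ± 0.34. Pecam1 and Cdh5, the defining endothelial genes, did not pass (adjusted p = 0.189 and 0.194). Of 2 tested muscle markers 1 rose, and the muscle regulator genes Myod1, Myog and Myf5 were too low to test. Of 5 tested neural markers 2 rose and 1 fell (2 without TC 2), the fall being the neuronal tubulin gene Tubb3 at -2.31 ± 0.12. The fibroblast markers fell in 9 of 12 cases and rose in 1, Vim, which lost its call without TC 1 (adjusted p = 0.0822) or TC 2 (adjusted p = 0.0675). The part of other cell types in the results was not tested.

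Where z-VAD-fmk was added, 56.1% of tested genes differed from TC, and 169 of the 203 genes chosen for naming did. Both comparisons share the TC libraries, so the log2 fold changes of each comparison are given side by side only. Scube3, a secreted growth factor-like protein, was 7.46 in TC against control and -4.55 in TCZ against TC, and Pdgfb was 8.31 and -2.72. Egr4 was 7.62 and 4.01, and Cxcl2 9.70 and 3.65. Cxcl10 was 8.22 and -0.01, and Kif21b -4.82 and 0.13, with no call in the second comparison for either.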

How the data were processed

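Poly(A) RNA of 6 libraries was measured by sequencing, and the 4 control and TC libraries form this comparison. The authors deposited 1 table with raw read counts per gene beside RPKM, per the file headers. The submitters' processing notes name bcl2fastq, HISAT2 2.1.0, HTSeq and build mm10. Annotation and strand setting: not given in the sources used here, so overlapping and antisense genes are uncertain. The deposited RPKM equalled counts per kilobase and 1000000 total counts within 4.97e-07.

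The analysis of counts used edgeR 4.0.16 in R 4.3.3. Genes were kept by filterByExpr on the groups with minimum count 10, libraries were scaled by TMM, and all 6 libraries entered a quasi-likelihood fit (glmQLFit and glmQLFTest) with group as the only factor and 3 residual degrees of freedom. P-values were adjusted by Benjamini-Hochberg, with a threshold of 0.05. The biological coefficient of variation was 7.38%, and total counts of 26834352 to 50854810 set the precision of each library. Libraries of a group differed beyond counting noise, but no label says whether they were separate cultures, and the p-values speak only of the spread between libraries, and that spread may be technical. Counting intervals and floors cover counting error only. In simulated counts of TC against control (15914 genes) 100% of changes of 1 and 2 on the log2 scale were recovered, and 0.0636% of unchanged genes were called. Only 100 genes were changed by each size there, equally up and down. They were drawn from the better expressed genes, and every gene had the same spread. In the data 60.7% of tested genes were called and many were near 0 in control, so these rates need not hold for them.

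Gene lists (51, with 859 distinct genes, 797 tested) and the naming rule were chosen with earlier results of these data known, and they support nothing by themselves. The rule took the 12 largest rises and 12 largest falls among called protein-coding genes averaging 10 CPM or more with no overlap, the 8 largest RPKM gains and 8 largest losses, up to 2 rises and 2 falls of each list at 5 CPM, and a set of TNF-α, death and reference genes. It gave 203 genes, of which a selection is described, and some genes are not reported here. Other named genes are list members or were chosen after their values were seen. Coordinates are the deposited table's, on mm10. Promoters are RefSeq's on GRCm38.p6, matched by symbol for 552 of 880 named or list genes. Alternatives were DESeq2 1.42.0, RLE size factors, library totals, other filters, the 4 libraries alone and the replicate number as a block. Further ones were each library left out, control 2 and TCZ 2 left out, a nearer promoter window and wider classes. Added after the data were seen were genes of at least 1 CPM in control and genes of at least 1 CPM over the 4 libraries.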

Additional observations from a re-analysis of the deposited data

How the results depend on the processing

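With library totals in place of TMM factors the median log2 fold change of all tested genes moved from 0.02 to -0.11, and 5080 genes were called higher and 6586 lower, so all changes are relative to the TMM scale. The number of called genes was between 10002 and 11666 under DESeq2, the other scalings, the other filters, the fit of the 4 libraries alone and with control 2 and TCZ 2 left out, 9355 to 10230 with 1 of the 4 libraries left out, and 5438 where the log2 change also had to reach 1. Of the 203 genes chosen for naming, 200 were called, and 195 to 201 under the alternatives. Of those described here, none changed direction under these alternatives. Same-numbered libraries of control and TC did not deviate together (correlation 0.011 across genes). The correlation was 0.124 for control and TCZ and -0.021 for TC and TCZ. With 2 libraries a group these values cannot decide whether the numbers pair the samples, and no label says so. With the replicate number as a block 11240 genes were called, 11083 of them among the 11264. The medians of the MYC, caspase, TGF-β, prostaglandin and neural marker lists changed sign under at least 1 alternative, and those of the other 46 lists did not. In the nearer promoter window the shares among genes at least 2-fold higher were 6.17% for the NF-kB, 5.03% for the interferon and 6.36% for the AP-1 motif, beside 4.08%, 5.01% and 3.97% of genes not called. The AP-1 share over any called rise was 6.55%. A shorter window can hold fewer matches by construction.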

Other observations

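Some large gains and losses fell outside the lists. Mt2, a metallothionein that binds zinc and copper, had 39.4 and 36.7 CPM in control and 354 and 356 CPM in TC and rose by 3.22 ± 0.08 (adjusted p = 2.20e-18). Ifrd1, a transcriptional coregulator of differentiation, had 117 and 104 CPM in control and 1098 and 1112 CPM in TC and rose by 3.32 ± 0.08. Cilp2, a matrix protein known from cartilage, had 0.0412 and 0.0664 CPM in control and 25.2 and 27.6 CPM in TC, and Scube3, a secreted protein with EGF-like domains, had 0.474 and 0.697 CPM in control and 95.4 and 103 CPM in TC. Both TC libraries were higher in each of these 4 genes. Among losses, Rplp1, a ribosomal stalk protein, had 1973 and 1959.8 RPKM in control and 1264 and 1347 RPKM in TC and changed by -0.45 ± 0.08, and ND2, a mitochondrially encoded subunit of complex I, changed by -1.38 ± 0.08. Of the 343 tested protein-coding genes with symbols starting Zfp, for zinc finger proteins, 33.8% were called higher and 37.6% lower. Those shares were near the 32.5% and 34.8% of all tested protein-coding genes. Zfp354c was the largest fall named among them, with 23.9 and 21.5 CPM in control and 1.38 and 1.79 CPM in TC.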
